A study of Mus musculus with 12 samples.

Results

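The alpha arrestin genes Arrdc1, Arrdc2, Arrdc3 and Arrdc4 and their relative Txnip were followed through livers and subcutaneous fat of male mice that carried a liver-directed vector for human HKDC1, a hexokinase. They were chosen by gene name and are 5 of the 54532 genes of the count table. They were picked with results of these libraries in view, so their differences between vectors are given as a description: no p-value of a member is printed for them, and nothing is read from the counts of calls. Mice were injected at 10 weeks of age with AAV8-TBGp null or with AAV8-TBGp carrying full-length human HKDC1 (hHKDC1 OE), and were then kept on a low-fat diet. The TBG promoter acts in hepatocytes, so the fat of hHKDC1 OE mice is not the tissue the vector addresses. RNA was sequenced 16 weeks after injection, with 3 null liver, 3 hHKDC1 OE liver, 3 null fat and 3 hHKDC1 OE fat libraries, each a separate sample. Whether a liver and a fat library came from the same mouse is not given in the sources used here. Other liver assays of the study used mice after a short fast, and whether that held for these RNA samples is not given.

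Alpha arrestins are adaptor proteins with an arrestin fold. Most carry short motifs that bind ubiquitin ligases of the NEDD4 family, and they bring these ligases to receptors and transporters, which are then ubiquitinated and taken up from the cell surface. Txnip binds thioredoxin and blocks its reducing activity, and it lowers glucose uptake through the glucose transporters. In liver and fat, Txnip and Arrdc4 are known as targets of the glucose-sensing factors ChREBP (Mlxipl) and MondoA (Mlxip), which respond to phosphorylated glucose, the product of hexokinases.

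All 12 libraries had similar depth, from 15496019 to 19954971 counts on genes. In each tissue the labels describe hHKDC1 OE replicates 2 and 3 as knockouts, whereas their titles and treatment entries give overexpression. They were kept as hHKDC1 OE, and the comparisons of vectors within each tissue were also fitted without them. Those fits set 1 hHKDC1 OE library, replicate 1, against 3 null libraries, so the spread comes from the null libraries alone and the lone library is assumed to vary like them. The comparisons that involve both tissues were not. The human transgene was not analysed here, and mouse Hkdc1 had 0 to 8 counts in every library, so the overexpression itself was not checked. The tissue labels held: 10 hepatocyte markers (Alb and others) summed to 110115 to 166896 CPM (counts scaled to library depth, TMM-normalized) in liver and to 638 to 5836 in fat, and 9 adipocyte markers (Adipoq, Plin1 and others) to 37.5 to 80.5 in liver and 15522 to 22165 in fat. The fat libraries differed in other cell types. Summed B cell markers (11 genes) were 1.97 to 3.42 CPM in null fat but 769, 43.0 and 573 CPM in hHKDC1 OE fat replicates 1, 2 and 3, and T cell markers (9 genes) were 5.36 to 13.96 CPM in null fat and 433, 33.0 and 470 CPM in hHKDC1 OE fat. None of these lymphocyte markers was at 0 throughout a group. Skeletal muscle markers (7 genes) ranged from 346 to 14608 CPM in null fat and from 734 to 10983 CPM in hHKDC1 OE fat.

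The upstream sequences of the genes are shown because the family is best known for glucose-responsive transcription. These are up to 250 bases before each gene's start on its coding strand, read 5′ to 3′, from the RefSeq promoter table of GRCm38.p6, which held all 5 genes (for Arrdc3 the first of 3 listed starts, the one nearest the annotated gene start, and for Arrdc4 without 3 bases that belong to an annotated exon). They span chr3:96557707-96557956 (plus strand) for Txnip, chr7:68749242-68749488 (minus) for Arrdc4, chr13:80883134-80883383 (plus) for Arrdc3, chr8:70839721-70839970 (minus) for Arrdc2 and chr2:24935282-24935531 (minus) for Arrdc1. The listed start of Arrdc1 lies slightly upstream of its annotated gene start, so its stretch does not reach the gene as annotated. Capitals mark matches on either strand to CACGTG (the E-box), 2 copies of CACGNG set 5 bases apart (paired E-box-like sites, as in carbohydrate response elements), CCAAT (the nuclear factor Y box), the FOXO-type site GTAAACA and GGGCGG (the GC box). A search for the TATA box, TATAAA, found no match.
Txnip: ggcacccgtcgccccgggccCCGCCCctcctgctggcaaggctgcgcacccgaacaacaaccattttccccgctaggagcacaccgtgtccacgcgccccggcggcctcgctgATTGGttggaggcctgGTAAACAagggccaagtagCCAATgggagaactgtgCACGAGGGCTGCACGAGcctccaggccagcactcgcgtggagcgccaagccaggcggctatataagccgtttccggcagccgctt
Arrdc4: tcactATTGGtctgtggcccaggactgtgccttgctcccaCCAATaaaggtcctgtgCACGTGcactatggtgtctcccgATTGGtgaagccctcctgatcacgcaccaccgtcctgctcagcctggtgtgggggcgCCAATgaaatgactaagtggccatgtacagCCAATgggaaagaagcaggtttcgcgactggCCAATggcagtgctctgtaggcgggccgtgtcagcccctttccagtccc
Arrdc3: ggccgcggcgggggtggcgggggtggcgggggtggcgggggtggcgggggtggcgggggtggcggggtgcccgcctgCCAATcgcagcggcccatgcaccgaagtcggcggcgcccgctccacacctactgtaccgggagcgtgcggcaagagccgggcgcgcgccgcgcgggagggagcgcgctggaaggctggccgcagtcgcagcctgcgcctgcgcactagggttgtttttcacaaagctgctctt
Arrdc2: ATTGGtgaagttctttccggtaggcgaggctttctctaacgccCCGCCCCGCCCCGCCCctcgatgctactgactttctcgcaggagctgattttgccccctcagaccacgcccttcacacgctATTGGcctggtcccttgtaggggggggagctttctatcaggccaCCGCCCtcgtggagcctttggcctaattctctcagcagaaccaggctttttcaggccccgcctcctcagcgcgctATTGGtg
Arrdc1: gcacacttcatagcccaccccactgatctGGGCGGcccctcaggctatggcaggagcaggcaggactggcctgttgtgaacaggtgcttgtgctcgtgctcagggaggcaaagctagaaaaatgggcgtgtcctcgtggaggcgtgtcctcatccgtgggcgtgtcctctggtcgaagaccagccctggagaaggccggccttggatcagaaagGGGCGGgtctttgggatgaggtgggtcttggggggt

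Txnip was the only one of the 5 with the paired element, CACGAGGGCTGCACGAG, which began 85 bases before the start. This pattern was found in 15 of 32851 promoters, or 0.0457%. Txnip also held 1 GTAAACA, found in 3.17% of promoters, and 2 CCAAT boxes. Arrdc4 held 1 CACGTG, found in 6.02% of promoters, and 6 CCAAT boxes. At least 1 CCAAT box was found in 33.8% of promoters, and 6 or more in 0.0578%. Arrdc2 held 3 CCAAT boxes and 4 GC boxes, 3 of which lie next to each other, Arrdc3 held 1 CCAAT box, and Arrdc1 held 2 GC boxes, which 32.7% of promoters have at least once. These are matches of letters and not measured binding.

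In the genome (GRCm38), Arrdc1 lies at chr2:24925352-24935252 and Arrdc2 at chr8:70835129-70839720, both on the minus strand and with no overlapping gene. Arrdc4 lies at chr7:68736995-68749241 on the minus strand, also without an overlapping gene. Arrdc3 lies at chr13:80883384-80896042 on the plus strand, and the gene 1700023H06Rik on the other strand overlaps it without sharing exon bases. Txnip, at chr3:96557957-96561883 on the plus strand, lies wholly within the antisense gene Gm15441, with 606 shared exon bases. Libraries were not strand-specific, so reads in those bases cannot be assigned, but Gm15441 itself had at most 14 counts in any library against at least 1198 for Txnip.

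Txnip was by far the most abundant of the 5 genes, and it was a gene of fat. Levels are given as FPKM, fragments scaled to library depth and gene length, a scale that allows genes to be compared. In null fat Txnip had 349, 466 and 409 FPKM in replicates 1, 2 and 3, and in hHKDC1 OE fat 294, 353 and 290 FPKM. In null liver it had 33.9, 55.7 and 31.8 FPKM, and in hHKDC1 OE liver 34.4, 43.5 and 39.7 FPKM. Every fat library was thus above every liver library. By mean FPKM Txnip ranked 53 of 22046 protein-coding genes in null fat and 1297 in null liver. It made up 90.9% to 94.3% of the summed FPKM of the 5 genes in the fat libraries and 44.7% to 70.1% in the liver libraries. The order of the group means was hHKDC1 OE liver (39.2 ± 4.58 FPKM, SD, n = 3), null liver (40.5 ± 13.2), hHKDC1 OE fat (312 ± 35.1) and null fat (408 ± 58.8), and the ranges of both liver groups and of both fat groups overlapped on this scale.

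Arrdc3, which is linked to the trafficking of cell surface receptors, varied most within the tissues, with an SD of 1.08 for log2 CPM centred in each tissue. It had 12.5, 8.36 and 3.05 FPKM in null liver and 33.8, 16.5 and 13.6 FPKM in hHKDC1 OE liver. In fat the levels ran the other way, with 14.5, 15.6 and 17.4 FPKM in null fat and 3.10, 5.93 and 4.51 FPKM in hHKDC1 OE fat. All hHKDC1 OE livers were above all null livers, and all hHKDC1 OE fat libraries were below all null fat libraries. The order of means was hHKDC1 OE fat (4.52 ± 1.41), null liver (7.97 ± 4.75), null fat (15.8 ± 1.46) and hHKDC1 OE liver (21.3 ± 10.9 FPKM, SD, n = 3 each), and of neighbours in this order only null liver and null fat had ranges that did not overlap.

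Arrdc2, a less studied member, was at 9.56, 12.8 and 6.39 FPKM in null liver and at 4.05, 10.2 and 2.47 FPKM in hHKDC1 OE liver. In null fat it was at 10.9, 16.9 and 15.6 FPKM, and in hHKDC1 OE fat at 5.67, 4.56 and 2.88 FPKM. The fat groups were apart, and the liver groups overlapped because hHKDC1 OE liver replicate 2 was above 2 of the null livers. The order of means was hHKDC1 OE fat (4.37 ± 1.41), hHKDC1 OE liver (5.57 ± 4.07), null liver (9.59 ± 3.22) and null fat (14.5 ± 3.18 FPKM), and every pair of neighbours overlapped. The ratio of Arrdc3 to Arrdc2 was 0.476 to 1.31 in null liver and 1.62 to 8.34 in hHKDC1 OE liver, without overlap, whereas in fat it was 0.922 to 1.33 with null and 0.547 to 1.57 with hHKDC1 OE.

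Arrdc1, which recruits the ESCRT protein Tsg101 to bud vesicles from the plasma membrane, was the lowest in liver. It had 0.621, 1.44 and 2.21 FPKM in null liver and 1.56, 1.80 and 1.28 FPKM in hHKDC1 OE liver, from 18 to 67 counts per library. In null fat it had 4.32, 3.34 and 5.12 FPKM, and in hHKDC1 OE fat 11.1, 5.17 and 10.7 FPKM. The fat groups did not overlap, but hHKDC1 OE fat replicate 2 was barely above the highest null fat library. The liver groups overlapped, and each fat group was above both.

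Arrdc4, the closest relative of Txnip among the 4 and like it induced by glucose, had the closest group means. It had 3.58, 3.03 and 1.93 FPKM in null liver and 3.18, 3.68 and 2.29 FPKM in hHKDC1 OE liver. In null fat it had 3.69, 2.64 and 2.88 FPKM, and in hHKDC1 OE fat 3.77, 5.49 and 4.73 FPKM. Null liver (mean 2.85 ± 0.840), hHKDC1 OE liver (3.05 ± 0.700) and null fat (3.07 ± 0.548) overlapped, and hHKDC1 OE fat (4.66 ± 0.862 FPKM, SD, n = 3) was just above them. Arrdc5, the remaining mouse alpha arrestin, was near the limit of detection, with 5 counts in null liver replicate 2, 1 count in hHKDC1 OE fat replicate 3 and 0 in the other libraries, where 0 counts allow up to 3. It did not pass the filter on low counts, whereas the 5 described genes passed it in every comparison.

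**Figure D1:**
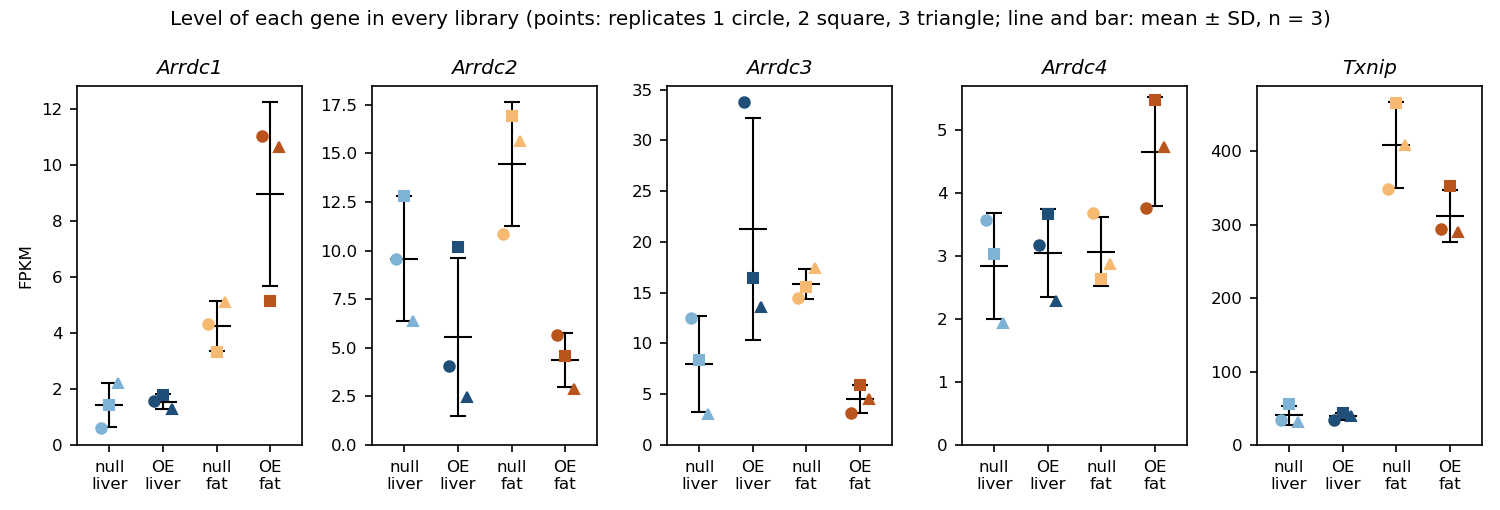
FPKM (vertical axis, from 0, a separate scale for each gene) of the 5 genes in null liver, hHKDC1 OE liver, null fat and hHKDC1 OE fat; each point is a library, and lines and bars are the mean and SD of 3. Arrdc3 is higher in hHKDC1 OE liver (13.6 to 33.8 FPKM) than in null liver (3.05 to 12.5) and lower in hHKDC1 OE fat (3.10 to 5.93) than in null fat (14.5 to 17.4), while Txnip separates the tissues.

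In liver the question was whether the family differs where the hexokinase is expressed. Arrdc3 was the member that differed most, with a log2 fold change (hHKDC1 OE over null, edgeR) of 1.45 (SE 0.47). Arrdc2 had a log2 fold change of -0.74 (SE 0.46), Arrdc1 of 0.14 (SE 0.45), Arrdc4 of 0.14 (SE 0.27) and Txnip of -0.01 (SE 0.23). The genes named as glucose-responsive, Txnip and Arrdc4, thus had estimates smaller than their errors, and the sign of both and of Arrdc1 turned when single libraries were left out. Arrdc3 was at 0.97 without hHKDC1 OE liver replicate 1, its highest library, and at 1.91 without null liver replicate 1. Arrdc2 was at -1.54 without hHKDC1 OE liver replicate 2, at -0.38 without replicate 3 and at -0.46 without null liver replicate 2. Without the 2 libraries described as knockouts, which leaves hHKDC1 OE liver replicate 1 alone, the library with the most Arrdc3, Arrdc3 was at 2.10 and Arrdc2 at -1.23.

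In the quasi-likelihood test of edgeR, adjusted by Benjamini-Hochberg over the 13351 genes tested in liver, 0 of 5 members were called at an adjusted p under 0.05, against a background of 0% of all genes. At an unadjusted p under 0.05 the count was 1 of 5, where 6.94% of all genes were, and by DESeq2 0 of 5 were called, against 0.736% of all genes. The groups were apart for 1 of 5 members, Arrdc3, against 12.5% of all genes. Since these contrasts may have been used to choose the members, nothing is read from these counts. Other measures differed between the liver groups in their means. Macrophage markers (8 genes) summed to 186 to 264 CPM in null and 265 to 463 CPM in hHKDC1 OE liver. The groups nearly touched, with null replicate 3 at 264.4 CPM and hHKDC1 OE replicates 2 and 3 at 267 and 264.8 CPM. Of these markers 7 had a higher and 1 a lower estimate. Hepatocyte markers summed to 158490 to 166896 CPM in null and 110115 to 149073 CPM in hHKDC1 OE liver. Of the 10 hepatocyte markers 6 had a lower and 4 a higher estimate. Endothelial markers summed to 76.8 to 127 CPM in null and 47.9 to 85.2 CPM in hHKDC1 OE liver, with overlap. All 5 of them had a lower estimate (median -0.79 on the log2 scale), 3 at an unadjusted p under 0.05. Their part in the Arrdc3 difference was not tested, and in bulk tissue fewer cells of a type and less RNA per cell cannot be told apart.

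In fat the same comparison asks what happened in a tissue without the hepatocyte-directed expression. Arrdc2 and Arrdc3 were both lower in hHKDC1 OE fat, with log2 fold changes of -1.67 (SE 0.29) and -1.77 (SE 0.22). Txnip was at -0.34 (SE 0.22), while Arrdc1 was higher at 1.15 (SE 0.34) and Arrdc4 at 0.65 (SE 0.21). Each of these 5 signs was kept when any 1 library was left out. Over those fits Arrdc3 ranged from -1.98 to -1.57, Arrdc2 from -1.94 to -1.46, Arrdc1 from 0.95 to 1.44, Arrdc4 from 0.53 to 0.78 and Txnip from -0.47 to -0.25.

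Of the 16380 genes tested in fat, 0% were called by edgeR, and 0 of 5 members. At an unadjusted p under 0.05 the count was 4 of 5 members, where 17.7% of all genes were, and DESeq2 called 3 of 5, Arrdc1, Arrdc2 and Arrdc3, against 7.46% of all genes. On normalized CPM the groups were apart for 5 of 5 members, against 22.7% of all genes, although Txnip was apart only on that scale and overlapped on FPKM. Again nothing is read from these counts. The calls rested on which libraries were kept: without hHKDC1 OE fat replicate 2, the library with the fewest lymphocyte markers in its group, 3251 genes and 3 members (Arrdc1, Arrdc2 and Arrdc3) were called, and without the 2 libraries described as knockouts 1024 genes and 2 members (Arrdc1 and Arrdc3) were. That last fit has hHKDC1 OE fat replicate 1 alone, the library with the most B cell marker RNA, against 3 null libraries, and in it Arrdc3 was at -2.27 and Arrdc4 at 0.38.

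**Figure D2:**
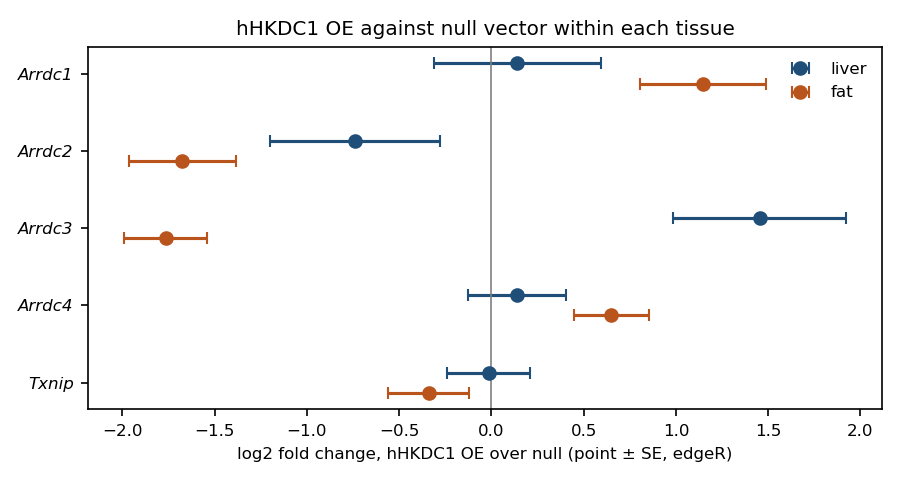
Log2 fold change of hHKDC1 OE over null (horizontal axis) for each gene in liver and in fat; points are edgeR estimates from 3 against 3 libraries and bars are standard errors. Arrdc3 is at 1.45 in liver and -1.77 in fat, Arrdc2 is below 0 in both, and Txnip in liver is at -0.01.

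Arrdc1 was highest in the 2 fat libraries with the most lymphocyte RNA. In hHKDC1 OE fat replicates 1 and 3, where B cell markers summed to 769 and 573 CPM, Arrdc1 was at 11.1 and 10.7 FPKM, and in replicate 2, where they summed to 43.0 CPM, it was at 5.17 FPKM. All 11 B cell markers were higher in hHKDC1 OE than in null fat without overlap, and of the 9 T cell markers 8 were. Arrdc3 ran in the inverse order of the B cell markers within the group, at 3.10, 4.51 and 5.93 FPKM in replicates 1, 3 and 2, and Arrdc2 was highest in replicate 1 and lowest in replicate 3. Macrophage markers were 175 to 370 CPM in null fat and 535 to 868 CPM in hHKDC1 OE fat, with means of 304 and 688 CPM. Lyz2 alone had means of 121 and 460 CPM on that scale. Of the 8 macrophage markers 6 had a higher and 2 a lower estimate, and 3 had an unadjusted p under 0.05. Hepatocyte markers were 1929 to 5836 CPM in null fat and 638 to 1786 CPM in hHKDC1 OE fat. Keratinocyte markers (4 genes) were 8.62 to 150 CPM in null fat and 1.35 to 7.15 CPM in hHKDC1 OE fat, where 1 of them was at 0 counts throughout, and 4 of 4 had a lower estimate, 3 of them at an unadjusted p under 0.05. The part of these cell types in the fat differences was not tested.

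**Figure D3:**
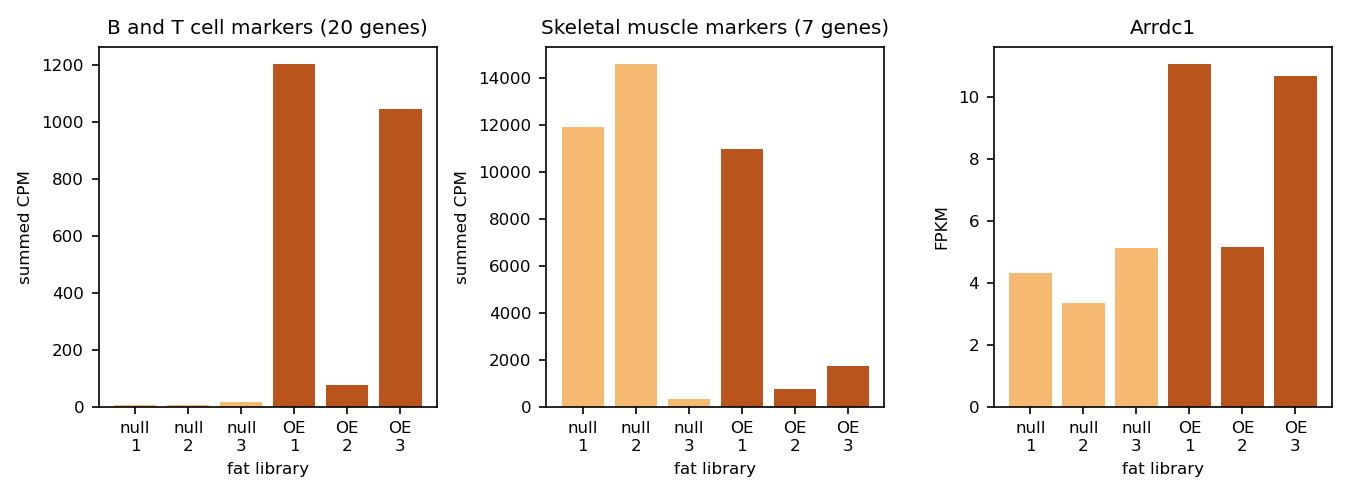
Summed CPM of 20 B and T cell markers (left), summed CPM of 7 skeletal muscle markers (middle) and FPKM of Arrdc1 (right) in the 6 fat libraries, 1 bar per library. Arrdc1 is highest in hHKDC1 OE replicates 1 and 3 (11.1 and 10.7 FPKM), which also have the most lymphocyte marker RNA, while muscle markers are high in libraries of both vectors.

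The difference between the tissues in the effect of the vector was largest for Arrdc3, at -3.14 on the log2 scale (SE 0.63, fat minus liver), and it stayed between -3.62 and -2.65 when any 1 of the 12 libraries was left out. Arrdc1 was at 1.09 (SE 0.59), Arrdc2 at -0.84 (SE 0.63), Arrdc4 at 0.60 (SE 0.36) and Txnip at -0.25 (SE 0.34). Leaving out 1 library gave 0.60 to 1.44 for Arrdc1 and -1.25 to -0.07 for Arrdc2. For Arrdc4 it gave 0.30 to 0.80 and for Txnip -0.55 to -0.11. Of the 17070 genes in this fit 0% were called by edgeR, and 0 of 5 members, with 1 member at an unadjusted p under 0.05, where 12.7% of all genes were, and 1, Arrdc3, called by DESeq2, against 2.88% of all genes.

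The tissue difference of each gene was fitted under each vector. The libraries are those with which the members were chosen, so p-values are not independent of that choice. They are given for the null tissues. In hHKDC1 OE tissues a member's value holds any difference it has by vector, so the values there are a description and nothing is read from the calls. Txnip and Arrdc1 were higher in fat than in liver under both vectors. In null mice Txnip had a log2 fold change (fat over liver) of 3.28 (SE 0.29, adjusted p = 3.82e-05 by edgeR) and Arrdc1 of 1.51 (SE 0.43, adjusted p = 0.0153 by edgeR). In hHKDC1 OE mice, Txnip had 2.94 (SE 0.24) and Arrdc1 2.48 (SE 0.35). Without null liver replicate 2 the null call of Arrdc1 was lost (adjusted p = 0.0535 by edgeR).

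Arrdc3 was 0.94 (SE 0.42) higher in null fat than in null liver, which missed the threshold (adjusted p = 0.0793 by edgeR). Leaving out 1 library gave 0.54 to 1.40, and it was called without null liver replicate 1 (1.40, adjusted p = 0.0234 by edgeR), by DESeq2 (adjusted p = 0.0356), and with upper-quartile scaling and under both other filters (adjusted p = 0.0126 to 0.0425 by edgeR). It was lower in fat in hHKDC1 OE mice by a log2 fold change of -2.29 (SE 0.39). Arrdc2 had 0.54 (SE 0.27, adjusted p = 0.111 by edgeR) in null and -0.40 (SE 0.51) in hHKDC1 OE mice. In null tissues leaving out 1 library gave 0.31 to 0.80 for Arrdc2, which was called without null liver replicate 2 (0.80, adjusted p = 0.0405) or null fat replicate 1 (0.75, adjusted p = 0.0462) and with upper-quartile scaling and both other filters (adjusted p = 0.043 to 0.0478), each by edgeR. Arrdc4 had 0.06 (SE 0.26, adjusted p = 0.86 by edgeR) in null and 0.56 (SE 0.25) in hHKDC1 OE mice, where it was not called as fitted here but was with upper-quartile scaling or library size alone, with at least 10 counts in every library and with all 12 libraries in 1 fit. In null tissues 2 of 5 members were called, both higher in fat, against 64.3% of the 15259 genes tested (33.8% higher in fat). In hHKDC1 OE tissues 3 of 5 were called, 2 higher and 1 lower in fat, against 56.7% of 15817 genes (31.2% higher and 25.5% lower). With 5 members, shares this near the background are no result about the family. Depending on the scaling or filter, 2 to 5 members were called in null (5 with library size alone, which raised the median of all genes) and 3 to 4 in hHKDC1 OE tissues.

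**Figure D4:**
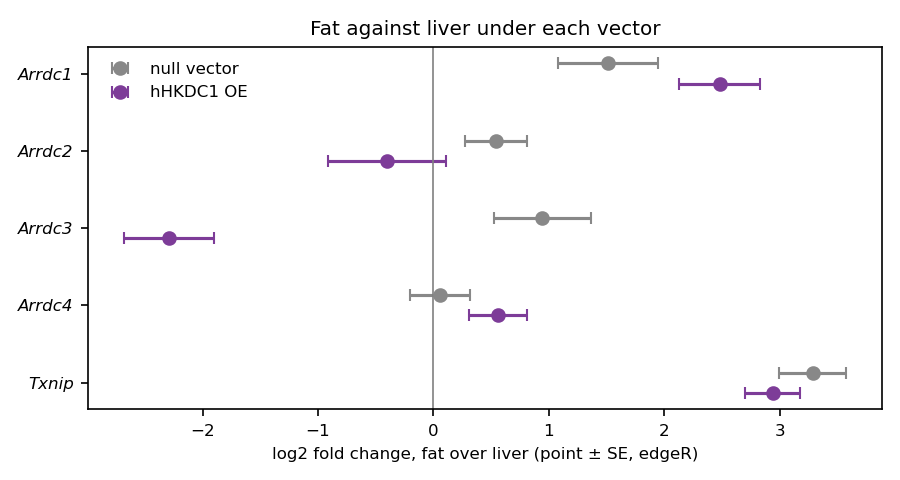
Log2 fold change of fat over liver (horizontal axis) for each gene under the null vector and under hHKDC1 OE; points are edgeR estimates from 3 against 3 libraries and bars are standard errors. Txnip is at 3.28 and 2.94 and Arrdc1 at 1.51 and 2.48, while Arrdc3 is at 0.94 with the null vector and at -2.29 with hHKDC1 OE.

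The scaling between tissues bears on these values. With library size alone the median log2 fold change of all genes tested was 0.976 in null and 1.11 in hHKDC1 OE tissues, instead of 0.0877 and 0.117. Upper-quartile scaling gave medians of 0.25 and 0.327. Relative to the medians with library size alone, Txnip was at 3.19 in null and 2.82 in hHKDC1 OE tissues, Arrdc3 at 0.878 and -2.37, Arrdc2 at 0.458 and -0.547, and Arrdc4 at -0.0231 and 0.439. Relative to the medians of the TMM fit, Arrdc2 was at 0.456 and -0.52 and Arrdc4 at -0.0307 and 0.44, so these values moved with the median of all genes.

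The genes around the family were read in the same fits, as 8 lists beside the markers. By vector, their counts at an unadjusted p under 0.05 stand beside 6.94% of all genes in liver and 17.7% in fat, and their DESeq2 calls beside 0.736% and 7.46%. The lists were chosen with earlier results of these data known, so these counts by vector are a description and nothing is read from them. Among the glucose-sensing MLX network, Mlxipl was higher in liver and Mlxip in fat, and both were expressed in fat. Scaled over all 12 libraries, Mlxipl was at 67.1 CPM in null fat and 217 CPM in null liver. Mlxip was at 68.4 and 13.3 CPM. Mlxipl was lower in fat, with log2 fold changes of -1.69 (SE 0.31) in null and -2.34 (SE 0.35) in hHKDC1 OE mice, and Mlxip was higher, at 2.36 (SE 0.18) and 2.40 (SE 0.35), each called by edgeR. Of the 7 MLX genes tested in null tissues 2 were called higher and 3 lower in fat, beside 33.8% and 30.5% of all genes. Of 8 MLX genes in hHKDC1 OE tissues 4 were called higher and 3 lower, beside 31.2% and 25.5%. By vector, 0 were called in either tissue by edgeR, 0 in liver and 3 in fat had an unadjusted p under 0.05, and DESeq2 called 0 and 1. Mlxipl was at 240 ± 98.3 CPM in hHKDC1 OE and 159 ± 57.5 CPM in null liver (SD, n = 3), a log2 fold change of 0.60 (SE 0.33), and the groups overlapped. In fat it was at -0.02 (SE 0.28). Mlxip was at -0.34 (SE 0.35) in liver and -0.29 (SE 0.14) in fat.

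Of 18 ChREBP target genes, 15 had a lower and 3 a higher estimate in hHKDC1 OE liver, with a median log2 fold change of -0.29 beside 0.006 for all genes. In fat 13 were lower and 5 higher, with a median of -0.25 beside -0.05 for all genes. None was called in either tissue by edgeR, and 2 in liver and 3 in fat had an unadjusted p under 0.05, against 6.94% and 17.7% of all genes. DESeq2 called 1 in each. The most abundant in liver was the desaturase Scd1, at 8263 ± 7030 CPM in hHKDC1 OE and 17236 ± 7534 CPM in null liver (SD, n = 3), and the groups overlapped.

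The genes of the thioredoxin system, the target of Txnip, were lower in fat than in liver where Txnip was higher. Of 12 tested in null tissues, 11 were called lower in fat and 1 higher (Txnrd3, log2 fold change 1.09), and in hHKDC1 OE tissues 11 were called lower, where 30.5% and 25.5% of all genes were. With library size alone, which raised the median of all genes, these became 6 lower and 2 higher in null, and 4 lower and 1 higher in hHKDC1 OE tissues. Txn1, the cytosolic thioredoxin, was at 60.3 ± 7.28 CPM in null fat and 236 ± 1.27 CPM in null liver, a log2 fold change of -1.96 (SE 0.15), and its reductase Txnrd1 was at -1.34 (SE 0.17). By vector, 0 of 12 were called in either tissue by edgeR or DESeq2, 0 in liver and 1 in fat had an unadjusted p under 0.05, and the medians were -0.07 in liver and -0.07 in fat. Txn1 was at -0.12 (SE 0.13) in liver and 0.42 (SE 0.18) in fat, and Txnrd1 at 0.24 (SE 0.18) and -0.06 (SE 0.13).

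Of the NEDD4 family ubiquitin ligases, which the arrestins recruit, 7 of 8 tested had a lower estimate in hHKDC1 OE fat, with a median of -0.35, and 4 of 8 in liver, with a median of 0.002. None was called by edgeR or DESeq2, and 0 in liver and 3 in fat had an unadjusted p under 0.05. In fat 5 were lower without overlap, including Nedd4 (938 ± 159 CPM in hHKDC1 OE and 1255 ± 129 CPM in null fat, log2 fold change -0.42, SE 0.22), Itch (-0.28, SE 0.13) and Wwp1 (-0.67, SE 0.23), where 10.2% of all genes were lower without overlap. The 1 ligase with a higher estimate in fat was also without overlap between the groups. In liver Nedd4 was at -0.05 (SE 0.17), Itch at 0.05 (SE 0.17) and Wwp1 at -0.06 (SE 0.17). Between tissues Nedd4 was higher in fat, with a log2 fold change of 1.31 (SE 0.20) in null and 0.92 (SE 0.24) in hHKDC1 OE mice, and Itch was lower, at -0.88 (SE 0.16) and -1.23 (SE 0.17), each called by edgeR. With library size alone Itch in null tissues was at 0.0097, below the median of 0.976 for all genes on that scale.

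Among the membrane proteins and partners that the arrestins act on, 11 were tested and none was called by vector with edgeR or DESeq2, and 1 in liver and 2 in fat had an unadjusted p under 0.05. The insulin-responsive glucose transporter Slc2a4 was a gene of fat, at 203 ± 36.4 CPM in null fat and 6.84 ± 3.84 CPM in null liver, with a log2 fold change of 4.89 (SE 0.40), and the adrenergic receptor gene Adrb3 (5.40, SE 0.57) was higher in fat as well, each called by edgeR under both vectors. By vector, Slc2a4 was at 0.08 (SE 0.48) in liver and -0.25 (SE 0.27) in fat, Slc2a1, the basal glucose transporter, at -0.34 (SE 0.21) and 0.11 (SE 0.19), and Adrb3 at 0.52 (SE 0.54) and 0.27 (SE 0.19). The insulin receptor Insr was at 0.02 (SE 0.14) in liver and -0.48 (SE 0.15) in fat, where its groups were apart.

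Genes that glucocorticoids induce had the lowest median of the 8 lists in both tissues. This list too was chosen with earlier results known, so nothing is read from its place or its counts. In hHKDC1 OE liver 11 of 12 tested had a lower estimate, with a median of -0.44, and in fat 12 of 12, with a median of -0.79, and 7 of these were lower in fat without overlap, where 10.2% of all genes were. None was called by edgeR, 4 in liver and 6 in fat had an unadjusted p under 0.05, against 6.94% and 17.7% of all genes, and DESeq2 called 2 and 4. Leaving out the library hHKDC1 OE liver replicate 2 gave 3 calls in liver, with 2 among the FOXO genes and 1 among the ChREBP targets, and leaving out hHKDC1 OE fat replicate 2 gave 8 in fat, where it also gave 3 calls among the MLX network, 3 among the membrane proteins and partners, 2 each among the thioredoxin system, the ubiquitin ligases and the FOXO genes, and 1 among the other arrestin-fold genes. Tsc22d3, a glucocorticoid-induced leucine zipper gene, was at 99.9 ± 41.7 CPM in hHKDC1 OE and 213 ± 52.4 CPM in null liver (log2 fold change -1.10, SE 0.32), and at 153 ± 61.9 and 343 ± 17.7 CPM in fat (-1.17, SE 0.29). Arrdc2 had lower estimates in both tissues too, whereas Arrdc3 was higher in liver. Of 13 FOXO and insulin-repressed genes, 6 in liver and 9 in fat had a lower estimate, with medians of 0.0007 and -0.21. None was called by edgeR, 3 and 2 had an unadjusted p under 0.05, and DESeq2 called 2 and 0. Pck1, the enzyme that commits to gluconeogenesis, was at -0.51 (SE 0.30) in liver and -0.25 (SE 0.32) in fat.

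Of 9 other arrestin-fold genes, 6 were tested in liver and 7 in fat, and none was called by vector with edgeR, 0 and 1 had an unadjusted p under 0.05, and DESeq2 called 0 and 1. The medians were 0.0009 and 0.0099. Vps26a, a retromer subunit, was at -0.12 (SE 0.16) in liver and -0.27 (SE 0.15) in fat, and the classical beta-arrestin Arrb1 at -0.36 (SE 0.25) and 0.0099 (SE 0.22). Arrb1 was higher in fat than in liver, with log2 fold changes of 2.54 (SE 0.16) in null and 2.91 (SE 0.30) in hHKDC1 OE mice by edgeR. The difference between tissues in the vector effect was called by edgeR or DESeq2 for 0 genes of these lists, and 1 gene each of the MLX, thioredoxin, glucocorticoid and FOXO lists had an unadjusted p under 0.05. Without hHKDC1 OE fat replicate 2, edgeR called 2 genes each of the MLX and glucocorticoid lists for it, and with no filter on low counts 1 MLX gene.

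**Figure D5:**
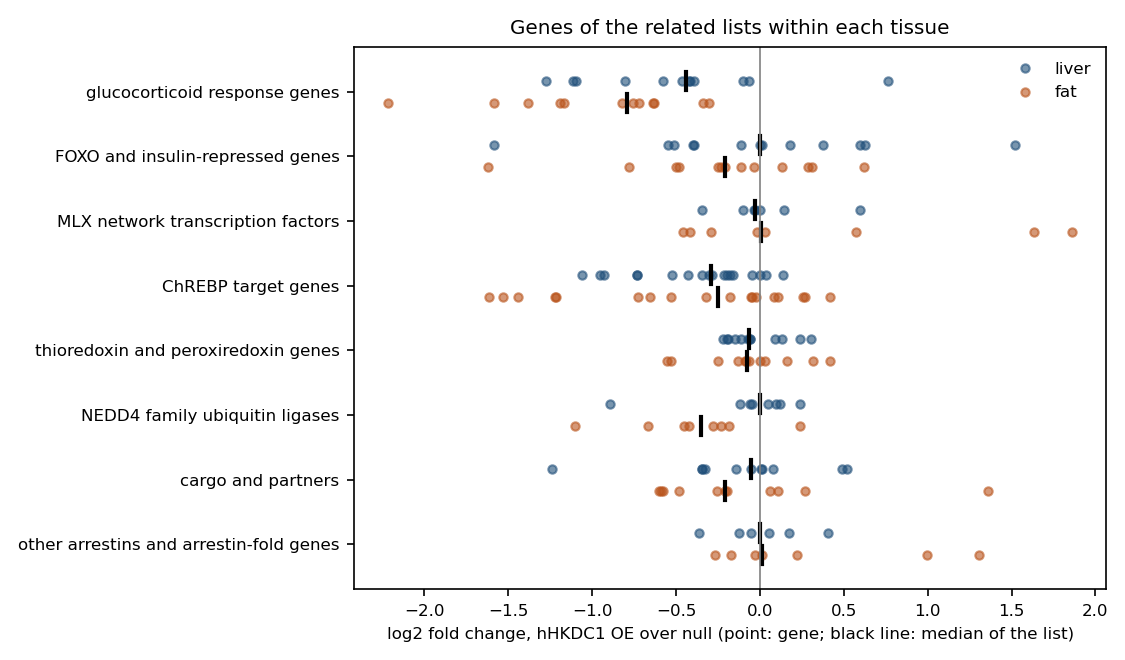
Log2 fold change of hHKDC1 OE over null (horizontal axis) for each tested gene of 8 related lists in liver and in fat; each point is a gene and black lines are list medians. The glucocorticoid response genes lie lowest, with medians of -0.44 in liver and -0.79 in fat, and no gene shown was called by edgeR.

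The genes whose pattern was most like each member's were found by the root mean square difference of log2 CPM, centred within each tissue, over the 12 libraries and among 11697 genes with at least 1 CPM on average in each tissue. This was done for the 3 members whose centred values had an SD of at least 0.5, namely Arrdc1 (0.638), Arrdc2 (0.931) and Arrdc3 (1.08). Arrdc4 (0.375) and Txnip (0.275) were below it. Nearest to Arrdc2 were Ciart (0.295), Etnppl (0.322) and Tsc22d3 (0.385). Nearest to Arrdc1 were Gramd1a (0.146), Chd3 (0.187) and Arrb2 (0.190), which had fat log2 fold changes of 0.87 (SE 0.28), 1.09 (SE 0.28) and 1.30 (SE 0.38). Nearest to Arrdc3, though at a greater distance, were Orm3 (0.591), Trhde (0.598) and Fam20c (0.612), which had liver log2 fold changes of 2.39 (SE 0.56), 0.68 (SE 0.35) and 0.56 (SE 0.20) and fat ones of -1.52 (SE 0.39), -1.04 (SE 0.49) and -1.49 (SE 0.31). Centring within tissues leaves the difference by vector in the pattern, so genes near a member share its fold changes by selection. The fold changes of these nearest genes are a description, and nothing is read from them. The members were not among each other's nearest genes. Arrdc2 and Arrdc3 differed by 1.09, which put Arrdc3 at rank 10401 of the genes nearest to Arrdc2, and Txnip stood at rank 760 for Arrdc2 and 2386 for Arrdc3.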

How the data were processed

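Liver and subcutaneous fat RNA was sequenced from 12 samples. The authors mapped reads with STAR (2.5 in the submitters' processing notes) and counted them with HTSeq 0.6.1. The methods name a human genome, whereas the gene identifiers and positions are those of mouse GRCm38. The deposited counts are whole reads per gene, not normalized, and not strand-specific. The deposited FPKM values were recomputed from counts, gene lengths and DESeq2 size factors over the 12 libraries, and 100% of 252371 came within 1%, so they depend on both tissues. A table of the authors' own fold changes and p-values was not used.

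Counts were tested with edgeR 4.0.16 in R 4.3.3 (quasi-likelihood, TMM, filterByExpr, Benjamini-Hochberg over all genes tested, threshold 0.05), each comparison on its own libraries and the interaction on all 12. CPM are TMM-normalized within a tissue for comparisons by vector, and over all 12 libraries for comparisons between tissues and for marker sums. SE is the fold change over the square root of F. "Apart" means no overlap of library CPM. Alternatives were DESeq2 1.42.0, other scaling and filters, a replicate block, and leaving out libraries. Each library is labelled as its own sample, but nothing says that the replicates were processed independently, so p-values measure the spread between these samples. No 2 libraries were close enough to be 1 library (chi-square per gene 21.8 to 173). The scripts were tested on simulated data.

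The members and gene lists were chosen with earlier results of these data known. Of 161 listed symbols 160 matched 1 gene (Hgs did not). Genes named are the members, a short preset set (Arrdc5, Mlxipl, Mlxip, Itch, Nedd4, Slc2a1, Slc2a4, Adrb3, Txn1, Txnrd1), up to 3 called genes per list and direction, or the 2 most abundant where none was called, and the 3 nearest genes of a member. Single genes that this rule would also name are not reported here. Endothelial markers (5 genes) summed to 628 to 698 CPM in null fat and 545 to 782 CPM in hHKDC1 OE fat.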

Additional observations from a re-analysis of the deposited data

Results flagged for a closer look

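Arrdc3 moved in opposite directions in the 2 tissues: every hHKDC1 OE liver library was above every null liver library, and every hHKDC1 OE fat library was below every null fat library. The difference of its log2 fold changes, fat minus liver, was -3.14 (SE 0.63). It is shown as a description with no p-value, since the gene may have been chosen for this pattern, and nothing is read from its calls: edgeR did not call it as fitted in the report, whereas DESeq2 did, as did edgeR with no filter on low counts, with a replicate block and without hHKDC1 OE fat replicate 2. Outliers within groups were not looked for, because each group has 3 libraries.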

How the results depend on the processing

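The number of genes called by vector depended on the setting. In liver, where edgeR called 0, DESeq2 called 94, scaling by library size 2, keeping every gene with a count 327, and the fit without the 2 libraries described as knockouts (chosen after seeing the data, with 1 hHKDC1 OE library left in each tissue and the spread taken from the null libraries) 76, and leaving out 1 library gave 0 to 146 (146 without hHKDC1 OE liver replicate 2). Without the filter 2 members were called (Arrdc2 and Arrdc3), and 0 when any 1 library was left out. In fat, DESeq2 called 1446 genes and 3 members, no filter 803 and 2, all 12 libraries in 1 fit 876 and 1, the fit without the libraries described as knockouts 1024 and 2, and leaving out 1 library 0 to 3251 genes and 0 to 3 members (the highest of both without hHKDC1 OE fat replicate 2). For the interaction, DESeq2 called 497 genes and no filter 479, each with 1 member (Arrdc3), and leaving out 1 library gave 0 to 1211 genes and 0 to 1 member. The cause of these differences was not tested.

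Between tissues, leaving out 1 library gave 8984 to 9671 genes and 2 to 3 members in null, and 7845 to 9691 genes and 3 members in hHKDC1 OE tissues. Members called in null tissues were 4 with upper-quartile scaling, 5 with library size alone, 4 with no filter, 4 with at least 10 counts in every library and 3 by DESeq2. Library size alone called 9012 genes higher and 2286 lower in null fat, instead of 5163 and 4647, and 9679 and 1943 in hHKDC1 OE fat, instead of 4931 and 4030. In fat by vector the median over genes tested went from -0.0455 to 0.109 with it. Arrdc4 in null tissues turned to -0.17 without null liver replicate 3 and to -0.05 without null fat replicate 1, and leaving out any 1 library gave -0.17 to 0.23. Arrdc2 in hHKDC1 OE tissues turned to 0.56 with library size alone, where the median over all genes moved to 1.11 (-0.547 relative to it, beside -0.52 as reported), and to 0.38 without hHKDC1 OE liver replicate 2, in a leave-one-out range of -0.75 to 0.38. All 20 group levels moved by less than 1 SD on a TMM-normalized scale.

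With a replicate block, edgeR called 17 genes and 1 member (Arrdc3) in liver, 168 and 1 (Arrdc3) in fat, and 6 and 1 (Arrdc3) for the interaction. The labels number the samples but do not say that a number marks a shared animal or day. Deviations of libraries with the same number correlated at 0.0865 to 0.202 in liver, -0.129 to 0.0464 in fat, 0.0396 to 0.259 in null tissues and 0.0184 to 0.0624 in hHKDC1 OE tissues, and 6, 1, 6 and 2 of 6 libraries correlated best with their own number, which is a hint from the data and not the design. Not every pair was above 0.1 in any comparison, so the fit without the block was kept.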

Other observations

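Arrdc5 and mouse Hkdc1 were too low to compare. With 3 libraries a group, the description of hHKDC1 OE replicates 2 and 3 as knockouts was not resolved from the values. The study's text describes these mice as null and hHKDC1 OE and gives no knockout group for this sequencing. In fat, vector and the cell content of the fat pieces cannot be told apart.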
